A study of Mus musculus with 8 samples.

Results

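The level of the histone mark H3K27me3 over autosomal genes was compared between both stages, E11.5 and E12.5, of female mouse primordial germ cells. The members were the genes of chromosomes 1 to 19 with 20 or more allele-assigned reads in both H3K27me3 libraries together. There were 16526 such genes of 20368 autosomal genes and 21352 genes in all. Of the autosomal genes left out, 3842 had fewer than 20 reads in the pair, 1254 of them with no read at all. The cells were taken by fluorescence sorting from pooled embryos of 1 sex, and profiled by low-input CUT&RUN, in which an antibody guides a nuclease that releases the DNA around its target. All animals were hybrids of the strains B6 and Cast with a germ cell reporter, Oct4-eGFP+/-. The females of both stages had the genotype Xist KO/+:Oct4-eGFP+/-, so a knockout of Xist, the RNA that silences the X chromosome, was shared by both sides of the comparison. The males of the E11.5 control with nonspecific IgG were Xist KO/Y:Oct4-eGFP+/-. The other IgG controls came from females of that same genotype, 1 from E12.5 and 1 from E13.5.

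H3K27me3 is placed by Polycomb repressive complex 2, whose catalytic subunit methylates lysine on the tail of histone H3. The mark is read by canonical Polycomb repressive complex 1 through its chromobox proteins, and it covers silent developmental regulators whose promoters are rich in the base pair step CG. Primordial germ cells have reached the gonad by about these stages. They erase most of their DNA methylation and then, in females, start meiosis. H3K27me3 is known to remain on developmental genes of these cells while DNA methylation is lost.

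Each stage had 1 H3K27me3 library with a file used here, so there was no replicate check, no test was made and no p-value is given. The E11.5 library held 2356356 autosomal reads and the E12.5 library 5020062. The level of a gene was its reads of both alleles per 1000000 autosomal reads of the library, abbreviated RPM. The change was the log2 of the E12.5 level plus 1 over the E11.5 level plus 1, which understates the change of sparsely covered genes. A gene is said to have risen or fallen where it changed by 2-fold or more. Levels are shares of a library. A gain or loss common to all genes therefore cannot be seen, and a fall over some genes raises the share of the others. A change in the mark per cell and a change in the share of cells that carry it cannot be told apart.

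Over the autosomes, levels per kb of gene kept nearly the same order at both stages, with a rank correlation of 0.943 over the 16526 genes, which share gene length and mappability in both libraries. The median change was 0.01 on the log2 scale, with quartiles of -0.21 and 0.22 and a range of -1.92 to 1.81. Of all 16526 genes, 125 (0.756%) rose and 130 (0.787%) fell. The change was above 0 in 8509 of them and below 0 in 8017. Scaled to a list of housekeeping genes in place of all autosomal reads, 180 rose and 89 fell. Sparse coverage accompanied most of these calls, since 211 of the 255 genes had fewer than 100 reads in the pair. Among the 10150 genes with 100 or more reads, 5 (0.0493%) rose and 39 (0.384%) fell. The IgG libraries of E11.5 males and E12.5 females, treated in the same way, gave 17 rises (0.255%) and 15 falls (0.225%) among 6674 genes with 100 or more reads. The IgG libraries of E12.5 and E13.5 females gave 208 rises (1.87%) and 320 falls (2.88%) among 11110 genes. The share of falls in the H3K27me3 pair thus lay above that of 1 IgG pair and below that of the other, and its share of rises lay below both. These are counts in single libraries of unequal depth, and the differences between them were not tested.

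The spread of the changes narrowed with coverage. The width from the 5th to the 95th percentile of the change was 1.63 for genes with 20 to 49 reads and 0.784 for the 1682 genes with 1000 or more. The counting error, as the median standard deviation over the genes of the bin, was 0.546 and 0.0738 in the same bins. The change was also computed from each allele alone, as a pair of counts that share the cells and the library but no read. The rank correlation of both alleles' changes was 0.060 over the 2978 genes with 20 to 49 reads and 0.701 over the 1682 deepest genes. Counting error was therefore a large part of the spread at low coverage and a small part at high coverage. Just inside the limit, 8.81% of the 579 genes with 20 to 24 reads changed by 2-fold or more, against 7.12% of the 576 genes with 15 to 19 reads.

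**Figure D1:**
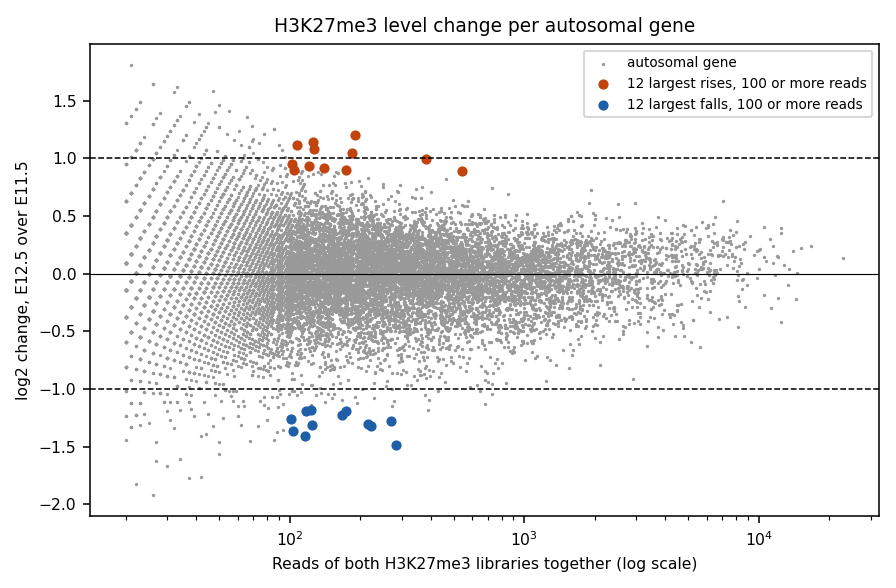
Change in H3K27me3 level (y axis, log2 of E12.5 over E11.5) of each of the 16526 autosomal genes against its reads in both libraries (x axis, log scale). Dashed lines mark 2-fold, and coloured points are the 12 largest rises and falls among genes with 100 or more reads. The cloud narrows to the right, and no gene with 1000 or more reads reaches 2-fold.

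The promoters of 4 genes are printed here to show how far CG content varied among the genes with the largest changes. The text below gives their levels. Each is the stretch of 250 bases before the gene's start in RefSeq (GRCm38.p6), 5′ to 3′ on the plus strand, with each CG in capitals. Foxc1 (chr13:31806396-31806645), Fgfr3 (chr5:33721474-33721723) and Adra2c (chr5:35278316-35278565) fell. Fcgr4 (chr1:171018676-171018925) was among the largest rises but did not reach 2-fold.
Foxc1: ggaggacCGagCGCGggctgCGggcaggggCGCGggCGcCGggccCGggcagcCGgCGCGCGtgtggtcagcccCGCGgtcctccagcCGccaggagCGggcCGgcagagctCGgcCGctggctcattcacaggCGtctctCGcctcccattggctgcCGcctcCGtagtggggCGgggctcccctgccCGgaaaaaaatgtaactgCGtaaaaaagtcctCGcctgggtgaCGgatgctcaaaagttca
Fgfr3: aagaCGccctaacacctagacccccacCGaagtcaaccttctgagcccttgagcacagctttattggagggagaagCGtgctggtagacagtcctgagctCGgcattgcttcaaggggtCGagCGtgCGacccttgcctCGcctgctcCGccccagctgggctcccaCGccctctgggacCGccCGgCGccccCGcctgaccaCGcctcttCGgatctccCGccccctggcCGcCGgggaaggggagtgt
Adra2c: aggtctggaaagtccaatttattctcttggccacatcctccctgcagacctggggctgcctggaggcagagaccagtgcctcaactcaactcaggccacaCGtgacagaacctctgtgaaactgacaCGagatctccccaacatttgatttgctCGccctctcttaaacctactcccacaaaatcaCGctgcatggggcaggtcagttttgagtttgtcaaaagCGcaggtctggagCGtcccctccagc
Fcgr4: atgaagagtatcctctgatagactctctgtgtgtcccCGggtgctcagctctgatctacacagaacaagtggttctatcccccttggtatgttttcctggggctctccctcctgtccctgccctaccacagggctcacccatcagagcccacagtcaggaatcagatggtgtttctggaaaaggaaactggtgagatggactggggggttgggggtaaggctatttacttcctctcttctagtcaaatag
The motif searched was CG, which reads the same on both strands. It occurred 29 times before Foxc1, 19 times before Fgfr3, 6 times before Adra2c and 1 time before Fcgr4. Among 25748 autosomal promoters of the same length, 1 per gene symbol, 92.0% hold a CG and the median number is 6. As many as Foxc1 has were found in 6.66% of them, and as many as Fgfr3 has in 20.1%. Of the 12 largest falls 9 had a promoter in the table, with 5 to 29 CGs, and of the 12 largest rises 10 had 1, with 0 to 9 CGs, so the ranges overlap. The deposited reads are summed over genes, so they do not place the mark at these promoters. The RefSeq promoters covered 78.5% of the members and 28 of the 39 fallen genes with 100 or more reads. With fewer than 80% covered, a check of CG content over all members is void.

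The genes that carried the most H3K27me3 over IgG were lower at E12.5. Genes were divided by the log2 ratio of their mean level in both H3K27me3 libraries to their mean level in the 3 IgG libraries. In the class above 2.5, which held 415 genes with a median length of 7.54 kb, the median change was -0.28 with quartiles of -0.43 and -0.10. In this class 0 genes rose and 5 fell. The first and the second allele alone gave medians of -0.29 and -0.26. Classes below this one showed medians of -0.25, -0.18 and -0.08 in steps of 0.5 down to a ratio of 1. From a ratio of -1 up to 1, the class medians were -0.01, 0.02, 0.05 and 0.002, without a steady decline. In the class at -1 or less, with 4741 genes and a median length of 38.4 kb, the median change was 0.08, and 48 genes rose while 7 fell. The shares over all genes were 0.756% risen and 0.787% fallen, and the class counts were not tested against them. By the class medians, the contrast between strongly and weakly marked genes was therefore smaller at E12.5 than at E11.5 in these libraries.

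The IgG libraries did not move the same way over the same interval. Between E11.5 males and E12.5 females, IgG gave a median change of 0.35 in the most strongly marked class, opposite in sign to H3K27me3. Between E12.5 and E13.5 females it gave -0.53 in that class, a larger step than that of H3K27me3. IgG libraries thus differed among themselves in this class by more than the H3K27me3 pair did, and the first IgG pair differs in sex as well as in stage. The part of background in the H3K27me3 change was not tested.

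**Figure D2:**
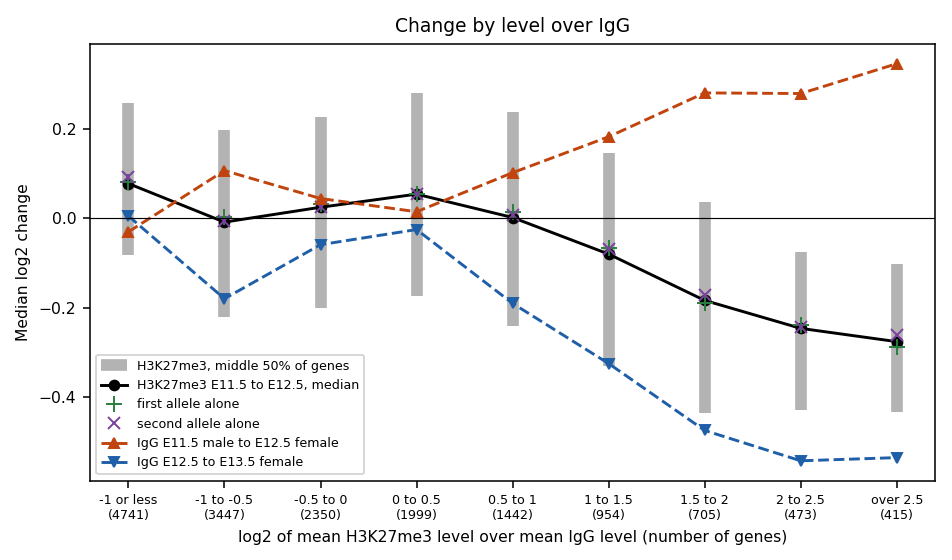
Median log2 change (y axis) in classes of genes by mean H3K27me3 level over mean IgG level (x axis, log2, with the number of genes), with bars for the middle 50% of genes in H3K27me3. The H3K27me3 line starts at 0.08 in the lowest class, lies between -0.01 and 0.05 from -1 to 1, and then falls to -0.28 in the highest. The single alleles lie close to it, and the 2 IgG pairs depart from 0 in opposite directions in the highest classes.

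Gene length went along with the change. The 1539 genes of up to 5 kb had a median change of -0.11, with 24 rises and 51 falls. The 529 genes over 300 kb had a median of 0.14, with no rise and no fall of 2-fold. Across all lengths the shares were 0.756% risen and 0.787% fallen. IgG from E11.5 males to E12.5 females gave 0.21 for the short genes and -0.22 for the long ones, and from E12.5 to E13.5 females -0.47 and 0.33. Length and level over IgG are not independent here, since the strongly marked classes held the shorter genes, and their parts were not told apart.

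Transcription factors of embryonic patterning carried high levels and were the list with the lowest median change. These factors set up body axes and organ fields and are the classical targets of Polycomb repression. Of 145 autosomal genes on the list, 135 had 20 or more reads. Their median level per kb was 6.39 at E11.5 and 5.19 at E12.5, against 0.915, 1.15 and 0.831 in IgG from E11.5 males, E12.5 females and E13.5 females. The median change was -0.32, with 110 of 135 genes below 0, 0 rises and 9 falls. Over all genes the median was 0.01, with 8017 of 16526 below 0 and 0.787% fallen. The 9 were Foxc1, Foxc2, Foxd3, Tbx1, Dlx3, Msx1, Irx3, Zic2 and Zic5, which regulate mesoderm, neural crest, limb and neural tube development. Tbx1, a regulator of pharyngeal and heart development, went from 83.6 to 38.6 RPM (change -1.09, 95% interval of the ratio -1.41 to -0.82). Dlx3, a regulator of skin and placenta, went from 89.1 to 43.4 (change -1.02, interval -1.32 to -0.76). These intervals are exact Clopper-Pearson intervals of the level ratio on the log2 scale without the added 1. They cover counting error only, since duplicate reads may remain. Pou3f2, a neural factor, had the highest change of the list, at 0.35 with an interval from -0.34 to 1.15.

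Secreted signals also had a negative median change. This list holds ligands and antagonists of the Wnt, BMP, FGF and Hedgehog pathways. Its 67 covered genes of 69 had a median level per kb of 3.32 at E11.5 and 2.77 at E12.5, a median change of -0.26, 0 rises and 2 falls, with 55 genes below 0. Over all genes, 8017 of 16526 were below 0 and the share fallen was 0.787%. The 2 were Nog, the BMP antagonist noggin, and Inhbb, a subunit of activins and inhibins. Nog went from 10.6 to 2.39 RPM, and IgG gave 0, 1.98 and 0.701 in the order used above. It rests on 25 and 12 reads, and its interval reached from -3.28 to -1.10. Inhbb rests on 12 and 9 reads. Fgf5, an FGF ligand, was the highest at 0.65, where IgG levels of 23.8 to 30.2 RPM met H3K27me3 levels of 17.8 and 28.5.

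Hox genes, which specify position along the body axis, carried about as much mark per kb as the patterning list. The 32 covered genes of 39 had a median level per kb of 6.62 at E11.5 and 6.13 at E12.5, against 0.532 to 0.796 in the 3 IgG libraries. Their median change was -0.13, with 22 genes below 0 and no rise or fall of 2-fold, and it was -0.02 and -0.06 from the first and the second allele alone. Added over the list, they held 1813 RPM at the first stage and 1739 at the second. The lowest and the highest member were both of the HoxD cluster. Hoxd1 went from 22.9 to 13.2 RPM (change -0.76, interval -1.34 to -0.26), and Hoxd9 from 10.6 to 16.9 (change 0.63, interval 0.02 to 1.38). For scale, 8017 of all 16526 genes were below 0. The difference between the Hox and the patterning list was not tested.

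The retinoic acid pathway, whose ligand promotes entry into meiosis, had 19 of its 21 covered genes below 0, a median change of -0.16 and no rise or fall of 2-fold. Over all genes, 8017 of 16526 were below 0 and the median was 0.01. Cyp26b1, the enzyme that degrades retinoic acid in the male gonad, had the lowest value at -0.73. It rests on 14 and 16 reads, with an interval from -2.03 to 0.25. Rxrb, a retinoid receptor subunit, had the highest at 0.41 with an interval from -0.41 to 1.41.

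Genes of the germ line itself were little marked, as was the median autosomal gene. Median levels per kb, first at E11.5 and then a day later, were 0.779 and 0.735 for germ cell specification genes, 0.660 and 0.706 for genome-defence genes such as those of the piRNA pathway, and 0.588 and 0.633 for meiosis genes. All 6 values were below the 3 IgG medians of the same lists. Over all covered autosomal genes the medians, 0.781 and 0.789, were likewise below the IgG medians of 1.12, 1.18 and 1.09. The median changes of the 3 germline lists were -0.02 over 25 genes, -0.01 over 30 and 0.01 over 38. Each takes the other sign under some alternative scaling, read limit or single allele. No gene of these 3 lists rose or fell. Pou5f1, the pluripotency factor Oct4 that drives the sorting reporter, was read 6 and 27 times, at 2.55 and 5.38 RPM, with IgG between 4.42 and 5.78. Klf4, another pluripotency factor, was the lowest of its list at -0.87, with an interval from -1.98 to -0.06. It rests on 20 and 21 reads, and its first allele alone gave 0.57 and its second -1.92. Its E12.5 level of 4.18 RPM lay among IgG levels of 3.30 to 5.16. Zcwpw1, a reader of histone methylation at recombination sites, was the highest meiosis gene at 0.74 (interval 0.14 to 1.52), and its H3K27me3 levels of 10.2 and 17.7 RPM stayed under IgG levels of 35.6 to 45.7. Oocyte genes had a median of -0.01 over 33 genes, above 0 with scaling to housekeeping genes. The single fall there was Tle6, a component of the subcortical maternal complex of the egg, from 18.2 to 8.17 RPM with IgG from 8.76 to 17.8. By comparison, 0.787% of all genes fell.

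Markers of cells that could accompany germ cells were also described, although a silencing mark does not measure expression and so does not identify cells. Somatic gonad genes, 32 of 36 covered, had median levels per kb of 5.16 and 3.78 and a median change of -0.20, with 23 genes below 0. The fall among them was Irx3, which the patterning list holds as well. For scale, 8017 of all 16526 genes were below 0 and 0.787% fell. Blood and endothelial genes had 2.30 and 1.95 per kb and a median change of -0.03, which turns positive under 4 of 12 alternatives. The fall there was Hhex, a homeobox factor of blood and endothelium, from 14.9 to 5.38 RPM (change -1.31, interval -2.25 to -0.70). The labelled cell type could not be checked from these data.

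Genes of Polycomb and Trithorax subunits, the machinery that places, reads or opposes the mark, had a median change of -0.08 over 33 genes with 0 rises and 2 falls. Of all 16526 genes, 0.756% rose and 0.787% fell. Epop, an elongin partner of Polycomb repressive complex 2, fell from 14.0 to 5.98 RPM (change -1.10, interval -1.99 to -0.47). It rests on 33 and 30 reads. Cbx7, a chromobox protein of Polycomb repressive complex 1, had the highest change of the list at 0.59. Its first allele alone gave 1.37 and its second -0.21, so the value rests on 1 allele.

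The leading falls among genes with 100 or more reads were of developmental and neural genes. Foxc1, a forkhead factor of mesoderm and eye, went from 28.0 to 9.96 RPM (change -1.40, interval -2.05 to -0.94), and IgG gave 2.21 to 5.28. Dmrta2, a doublesex-related factor of the forebrain, went from 49.7 to 19.5 (change -1.30), and IgG gave 5.61 to 9.24. Both stayed above all 3 IgG libraries at E12.5. Drd4, a dopamine receptor, went from 62.0 to 24.9 RPM, with 3.68 to 8.58 in IgG. Zic5, a zinc finger factor of the neural tube, went from 23.3 to 9.16, with 1.47 to 2.64 in IgG. Bhlha9, a limb factor, went from 29.3 to 11.2, with 0.876 to 3.68 in IgG. These too remained above IgG. Adra2c, an adrenergic receptor, went from 24.6 to 8.96 RPM, and Septin5, a septin of nerve terminals, from 51.8 to 20.1. Fgfr3, a receptor for FGF, went from 37.8 to 15.5 RPM, where IgG gave 15.3 to 32.3. Nefh, a neurofilament subunit, went from 26.3 to 10.96 and Fam181a from 38.6 to 16.3. Thpo, which encodes thrombopoietin, went from 27.6 to 11.6. Fgfr3, Fam181a and Nefh ended below at least 1 IgG library.

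As a group, the 39 fallen genes with 100 or more reads lay lower on both alleles in 38 cases, and 13 fell by 2-fold on each allele alone. Their median log2 ratio to the mean of the 3 IgG libraries was 1.72 at E11.5 and 0.67 at E12.5. Over all 10150 genes with 100 or more reads it was -0.22 and -0.19. IgG moved down from E11.5 males to E12.5 females in 10 of the 39, and its median change over them was 0.56. Their median length was 9.25 kb, against 42.4 kb over the 10150 genes. The 39 genes were chosen on their summed change, so the allele directions and the ratio at each stage describe them and support nothing further.

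**Figure D3:**
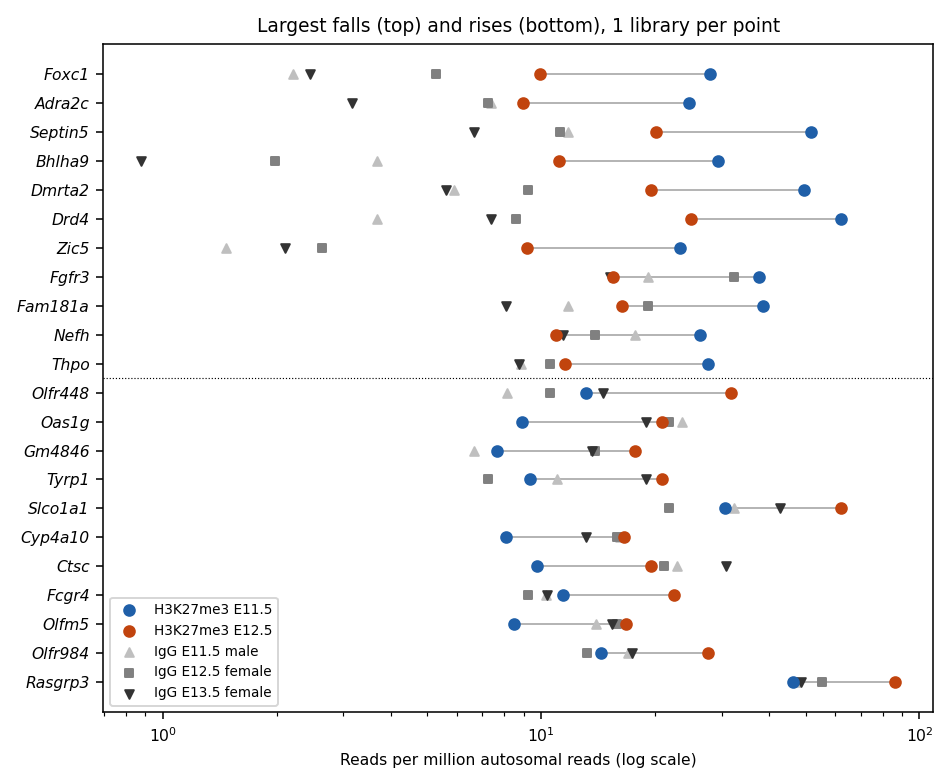
Levels (x axis, RPM, log scale) of 11 of the 12 largest falls and 11 of the 12 largest rises among genes with 100 or more reads, with 1 point for each of 5 libraries. H3K27me3 at E11.5 lies above all IgG points for the fallen genes, whereas most rising genes lie among or below the IgG points at E11.5.

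The rises came from lower levels, near those of IgG. Olfr448, an olfactory receptor gene, went from 13.2 to 31.7 RPM (31 and 159 reads, change 1.21, interval 0.71 to 1.87), and IgG gave 8.10 to 14.6. It is 1 of a family with similar copies, whose reads may be shared. Oas1g, an interferon-induced synthetase with close paralogues, went from 8.91 to 20.9, with IgG between 18.9 and 23.6. Its E11.5 level was below all 3 IgG libraries and its E12.5 level among them. Tyrp1, an enzyme of melanin synthesis (chr4:80834123-80851736), went from 9.34 to 20.9 (change 1.08, interval 0.49 to 1.90), with IgG from 7.26 to 18.9. Gm4846, a predicted gene, went from 7.64 to 17.7. These are 4 of the 5 genes with 100 or more reads that rose. Both alleles were higher in all 5, which were chosen on the summed change, and no gene doubled on both alleles. The other genes among the 12 largest rises did not reach 2-fold. They were Slco1a1, Cyp4a10, Ctsc, Fcgr4, Olfm5, Olfr984 and Rasgrp3, with changes from 0.89 to 0.996. Fcgr4, an Fc receptor of myeloid cells, went from 11.46 to 22.5 RPM, above IgG levels of 9.24 to 10.3.

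Covered members of the large families of sensory receptors had median changes above 0. Olfactory and vomeronasal receptor genes are expressed in sensory neurons of the nose and lie in clusters that are silent elsewhere. Of 1110 olfactory receptor genes, 638 had 20 or more reads. The others had fewer than 20 reads, and a gene can pass that limit through the deeper E12.5 library alone. The median change of the 638 was 0.21, with 453 above 0 and 185 below, 27 rises and 2 falls, where 0.756% of all genes rose and 0.787% fell. The 2 that fell were Olfr378 and Olfr1497. Over all genes, 8509 of 16526 were above 0. With 100 or more reads, 123 olfactory receptor genes gave a median of 0.18 with 1 rise and 0 falls. The median level per kb of the olfactory list was 0.933 at E11.5 and 1.09 at E12.5, against 0.903, 0.615 and 1.07 in IgG. Of 343 vomeronasal receptor genes, 196 were covered, with a median change of 0.29, 153 above 0, 8 rises and no fall. With 100 or more reads, 83 of them gave a median of 0.27 with no rise and no fall. The median level per kb of the vomeronasal list, 0.60 at E11.5 and 0.726 at E12.5, lay within the 0.782, 0.484 and 0.912 of the IgG libraries. IgG from E11.5 males to E12.5 females gave medians of -0.36 and -0.61 for the 2 families, and from E12.5 to E13.5 females 0.58 and 0.77. The largest changes rest on few reads, as for Olfr816 with 2 and 24 and for Vmn1r89 with 2 and 19. Reads of near-identical copies may be assigned to either copy.

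**Figure D4:**
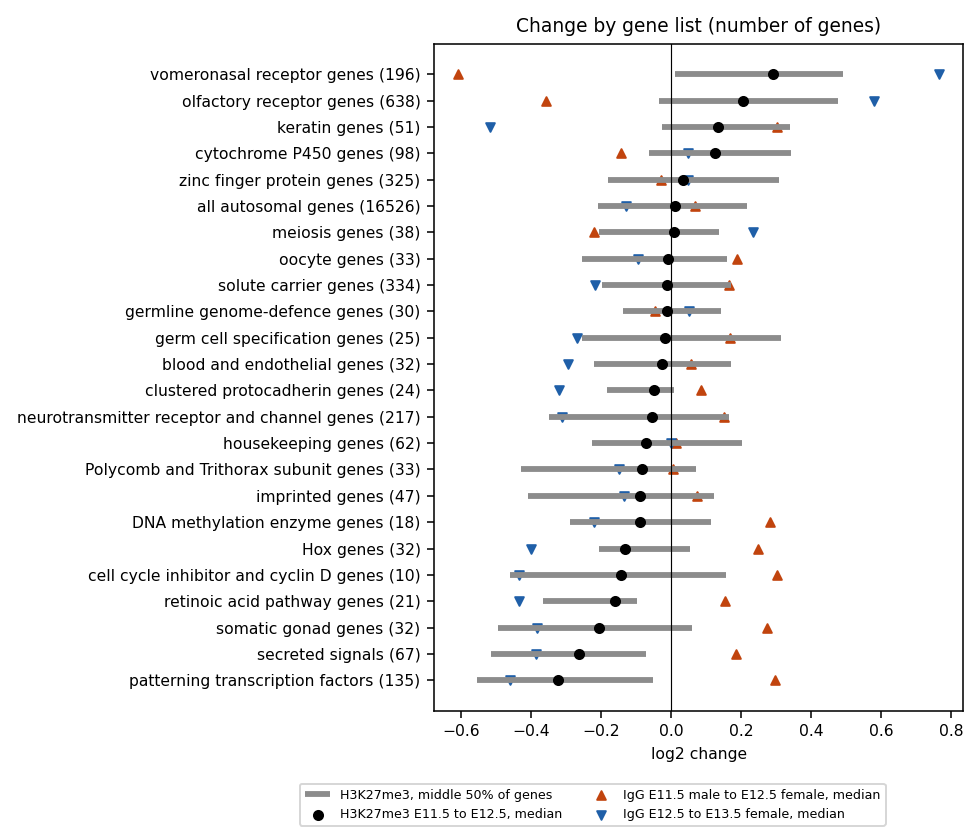
Median log2 change (x axis) of each gene list (y axis, with the number of genes with 20 or more reads) in H3K27me3 and in 2 pairs of IgG libraries, with bars for the middle 50% of genes in H3K27me3. Patterning factors lie lowest at -0.32 and vomeronasal receptors highest at 0.29. The IgG pairs lie on opposite sides of 0 for both of them.

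Keratin genes had a median change of 0.13 over 51 genes, 0.03 from the first allele alone and 0.21 from the second, and the rise of Krt31, a hair keratin with 4 and 25 reads. Their levels per kb of 3.74 at both stages were above IgG at 1.25 to 1.76. Krt18, a keratin of simple epithelia, was the lowest of the list, from 48.0 to 33.7 RPM (change -0.50, interval -0.86 to -0.15). Cytochrome P450 genes had a median of 0.13 over 98 genes with 2 rises, where 0.756% of all genes rose. These were Cyp3a11 and Cyp2c37, which encode drug-metabolising enzymes of the liver and have close paralogues. Imprinted genes, which are expressed from 1 parental allele, had a median of -0.09 over 47 genes with 2 falls, where 0.787% of all genes fell. These were Phlda2 and Cdkn1c, neighbours in the imprinted cluster of distal chromosome 7, the first from 10.6 to 3.98 and the second from 6.79 to 2.79 RPM. Both rest on 25 reads or fewer at each stage. IgG gave 2.21, 8.58 and 1.93 RPM for Phlda2, so its E12.5 level was below the E12.5 control. For Cdkn1c IgG gave 0.351 to 2.95 RPM. The first and the second allele alone gave -0.34 and -1.62 for Phlda2, and -0.49 and -1.43 for Cdkn1c. Cdkn1c, which encodes an inhibitor of cyclin-dependent kinases, was also the fall among 10 cell cycle genes, whose median of -0.14 turns positive with 100 or more reads.

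The remaining lists had medians that lay within 0.1 of 0. Those of housekeeping genes (-0.07, 62 genes), DNA methylation enzymes (-0.09, 18), neurotransmitter receptors and channels (-0.06, 217), clustered protocadherins (-0.05, 24), zinc finger proteins (0.03, 325) and solute carriers (-0.01, 334) each take the other sign under at least 1 of 12 alternatives. Eif4a1, a translation factor read 2 and 20 times, was the rise among housekeeping genes, and Adra2c and Drd4 were the falls among receptors and channels. Zinc finger genes had 3 rises (Zfp54, Zfp85 and Zfp534) and 5 falls (Zfp68, Zfp213, Zfp428, Zfp503 and Zfp575) among 325, near the 0.756% and 0.787% of all genes. Solute carriers had 2 falls, Slc35d3 and Slc27a3. Clustered protocadherins, cell surface proteins that label single neurons, were among the most heavily marked genes, at 7.10 and 6.21 per kb against 1.13 to 1.47 in IgG. Dnmt1, the maintenance DNA methyltransferase, had levels of 32.7 and 40.2 RPM, under IgG levels of 74.7 to 109. Of the 8 histone cluster genes in the files, 0 had 20 reads.

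The highest levels per kb at both stages combined belonged to short genes. Hsd17b1, an enzyme of estradiol synthesis, went from 59.4 to 45.8 RPM (change -0.37, interval -0.68 to -0.06), with IgG from 3.68 to 7.26. Tnf, the inflammatory cytokine, went from 55.6 to 46.8 and H2-D1, a class I histocompatibility gene, from 96.3 to 85.7. For both of these genes the interval of the ratio included 0. H2-D1 has near-identical relatives. Zmynd10, a factor of cilia assembly, went from 94.2 to 54.6 (change -0.78, interval -1.05 to -0.53). Fut1, a fucosyltransferase, went from 63.7 to 72.9 (change 0.19, interval -0.08 to 0.48). Of these 5, Zmynd10 alone changed by more than 0.5 on the log2 scale.

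The deepest genes gave the smallest errors. Among the 1682 genes with 1000 or more reads, changes ran from -0.93 to 0.73, so no gene reached 2-fold. A change beyond 0.5 was seen upward in 10 genes and downward in 43, and in 52 of the 53 both alleles went the same way. These genes were chosen on the summed change, to which both alleles add, so this agreement is no separate support. The genes named next were chosen after their values were seen. Ndst1, an enzyme of heparan sulfate synthesis, went from 249 to 130 RPM (change -0.93, interval -1.10 to -0.77). Tcf7l1, a transcription factor of the Wnt pathway, went from 583 to 308 (change -0.92, interval -1.03 to -0.81), and IgG gave 200, 275 and 186. Grm4, a glutamate receptor, went from 260 to 150 and Dok7, an adaptor of the neuromuscular synapse, from 208 to 125. IgG gave 106, 140 and 81.7 for Ndst1 and 110, 184 and 86.9 for Grm4, so both ended among the controls. Dok7 stayed above IgG levels of 45.7 to 89.1. Galnt10, a glycosyltransferase, had -2.11 on the first allele and -0.23 on the second, so its value of -0.75 came mostly from 1 allele. At the other end, Ptprq, a phosphatase of inner ear hair cells, went from 180 to 299.6 RPM (change 0.73, interval 0.58 to 0.89). IgG gave 193, 137 and 214. Tph2, the enzyme of serotonin synthesis in neurons, went from 252 to 383 (change 0.60, interval 0.47 to 0.74), and IgG gave 131, 152 and 136. Tph2 was above IgG at both stages, whereas Ptprq at E11.5 was among the controls.

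Several of the deepest rises lay next to each other. In windows of 5 Mb with 3000 or more reads, of which there were 465, the pooled change ran from -0.41 to 0.52 with quartiles of -0.06 and 0.14. The highest window was on chromosome 10 from 105 to 110 Mb (GRCm38.p6), with 14 genes, 7245 reads at E11.5 and 22201 at E12.5. Its pooled change was 0.52, or 0.49 without Nav3, its most covered gene, and the alleles gave 0.54 and 0.51. The second highest window adjoined it, from 110 to 115 Mb, with a pooled change of 0.43 over 12 genes. The long neural and sensory genes Nav3, Syt1, Ppfia2, Tmtc2, Ptprq and Otogl had changes from 0.47 to 0.73. Nav3, a neuron navigator, went from 698 to 1078 RPM, with IgG at 733, 510 and 846. Myf5 and Myf6, muscle regulators between these genes, had changes of -0.07 and -0.24, with intervals that include 0. IgG moved by -0.44 in the window from E11.5 males to E12.5 females and by 0.61 from E12.5 to E13.5 females. The lowest window, on chromosome 9 from 10 to 15 Mb, had -0.41 over 15 genes, and IgG gave 0.05 and -0.09. By whole chromosome the median ranged from -0.03 on chromosome 11 to 0.09 on chromosome 3.

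In some regions the reads of the alleles changed differently, which the summed level did not show. In the window of chromosome 17 from 75 to 80 Mb, with 20 genes, the first allele gave a pooled change of 1.20 and the second -0.20. This was the widest gap between alleles of all 465 windows, and the adjoining window from 70 to 75 Mb was next with 0.70 and -0.11. The first allele had 521 reads at E11.5 and 2582 at E12.5, which is 457 and 1049 RPM of that allele. The second had 1404 and 2577 reads, which is 1155 and 1008 RPM. In IgG the first allele had 749, 1247 and 721 RPM and the second 1524, 1272 and 1554, so the alleles were unequal in 2 of the 3 controls as well. From E11.5 males to E12.5 females, IgG thus went up on the first allele and down on the second, as H3K27me3 did. Rasgrp3, an exchange factor for Ras proteins, lies here and is among the 12 largest rises with 46.3 and 86.5 RPM. Its alleles gave 3.01 and -0.08. Qpct and Vit, in the same window, gave 2.23 and 1.51 on the first allele and 0.21 and -0.18 on the second. Of the 20 genes, 12 rose on the first allele and 0 on the second. Over the autosomal genes kept when 1 allele alone was used, 289 of 14124 rose on the first and 236 of 14505 on the second. The window was picked for its allele gap, so its count only describes it. The third widest gap was on chromosome 11 from 55 to 60 Mb, with 58 genes, where the first allele gave -0.53 and the second 0.01. Galnt10 lies there. The labels do not say whether all pooled embryos were hybrid in these regions. That was not tested, and it bears on what the single-allele values mean.

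**Figure D5:**
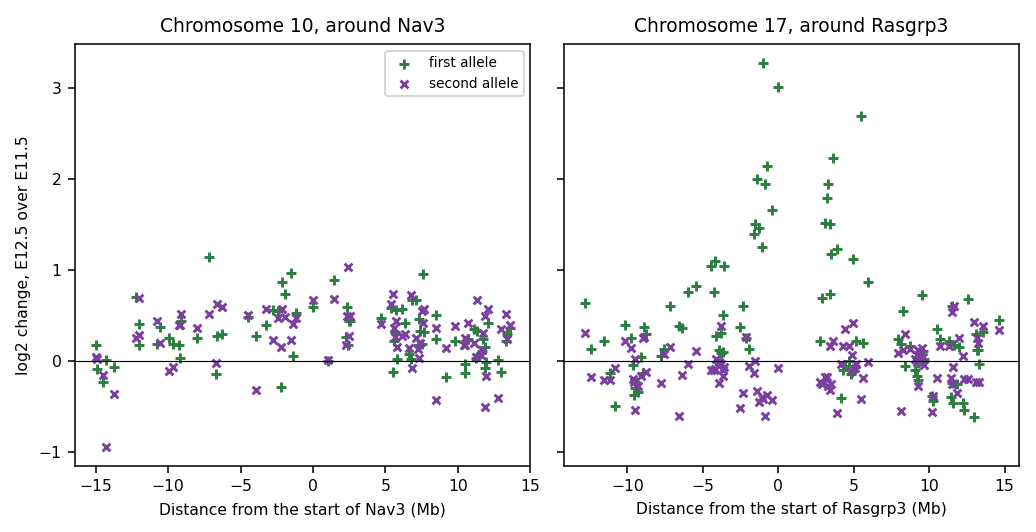
Change in H3K27me3 level of single alleles (y axis, log2 of E12.5 over E11.5) for genes with 100 or more reads against distance from the start of Nav3 on chromosome 10 and of Rasgrp3 on chromosome 17 (x axes, Mb). Around Nav3 both alleles lie mostly above 0, whereas around Rasgrp3 the first allele reaches 3 and the second stays near 0.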

How the data were processed

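CUT&RUN was made on sorted germ cells of pooled embryos. The labels list 8 samples, of which 5 had a file here: 2 H3K27me3 and 3 IgG libraries, each the only 1 of its group used here. The second-replicate H3K27me3 samples of both stages were not analysed here. The authors deposited raw counts, not normalised, of reads per gene on a first and a second allele. The files do not state which strain is which allele. Bowtie2 2.4.2, featureCounts, SAMtools 1.11 and Trim Galore 0.6.6 are among the tools named in the submitters' processing notes, with build mm10. Their roles, how duplicates were treated and how alleles were assigned are details not given in the sources used here. Fragments over no strain variant are not in the counts. Gene length, used for levels per kb, is that of the deposited files, and it was within 10% of the RefSeq span for 79.8% of matched genes.

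Both alleles were summed, scaled to reads per 1000000 autosomal reads (RPM) and compared as log2 with a pseudocount of 1. Total reads per library were 1378513 to 5880641. Python 3.11.15, pandas 2.3.3, NumPy 2.4.6, SciPy 1.17.1 and, for the TMM scaling alternative, edgeR 4.0.16 were used, and the scripts were tested on simulated data. Positions came from RefSeq GRCm38.p6 for 16418 members matched by symbol and chromosome. Named genes were the 12 largest rises and falls and, at 2 kb or more, the 5 highest levels per kb among genes with 100 or more reads, and the extremes of each of 24 gene lists. Genes past 2-fold in a list, the deepest genes, windows and single-allele regions were added after their values were seen. The members and lists were chosen with earlier results of these data known. No paired analysis was possible because each group had 1 library with a file used here. Results on some items are not reported here.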

Additional observations from a re-analysis of the deposited data

How the results depend on the processing

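With 1 library a side used here no replicate could be left out. No paired analysis was possible because the second replicates were not analysed here. The counts of 2-fold genes depended on coverage and on the pseudocount, as sparse genes make up most of them. The 125 rises became 191 with 10 or more reads, 31 with 50 and 5 with 100, and 1 with a pseudocount of 5. The 130 falls became 72 with 50 or more reads, 39 with 100, and 24 with a pseudocount of 5. At 1.5-fold there were 782 rises and 880 falls, and at 3-fold 5 and 7. The first allele alone gave 289 rises and 196 falls, and the second 236 rises. Thinning E12.5 to the E11.5 depth gave 103 rises and 160 falls, scaling to housekeeping genes 180 and 89. The median change of 0.01 became 0.0025 with reads of all genes, 0.0012 with TMM factors, 0 when centred, 0.086 with housekeeping genes and -0.000598 after thinning, so no scaling moved it by 0.1. The median of the class highest over IgG was -0.23 to -0.30 when the class was formed in other ways, which were chosen after seeing the data. The medians of the Hox, patterning, signal, somatic gonad, retinoic acid, Polycomb, imprinted, keratin, P450, olfactory and vomeronasal lists had the same sign under all 12 alternatives tried for them, with ranges of -0.14 to -0.02 for Hox, -0.33 to -0.24 for patterning, -0.30 to -0.08 for retinoic acid, -0.22 to -0.01 for Polycomb and 0.03 to 0.21 for keratin genes. Of the 24 largest rises and falls, 17 were past 2-fold. Under those alternatives these 17 gave 204 values, of which 15 were under 2-fold. Over all 24 genes 1 of 288 values had the other sign. Alternatives that only set a read limit leave the value of such a gene unchanged, so those values repeat the main result. Depth limits what single genes show, since below 50 reads the changes of both alleles were nearly unrelated.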
